A study of Rattus norvegicus with 6 samples.

Results

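The tissue inhibitors of metalloproteinases are encoded by Timp1, Timp2, Timp3 and Timp4, and Reck encodes a membrane-anchored glycoprotein that also restrains matrix metalloproteinases. These 5 genes were chosen by symbol out of the 18420 genes in the deposited table of rat chondrocyte RNA-seq, and each of the 5 was found there. Of the 5, 4 passed the filter on low counts and were tested among 13250 genes, and Timp4 did not. RNA-seq reads short fragments of a sample's RNA and assigns each to a gene.

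All cells were primary chondrocytes of WT male Sprague-Dawley rats, taken from knee and hip cartilage and used at the third passage. The 3 libraries of the TNF-α group were treated with TNF-α at 10 ng/mL for 6 h. The 3 libraries of the TNF-α+NFL group had the same treatment and then NFL, the cleared freeze–thaw lysate of rat abdominal Nanofat cells, for another 24 h. Every library of both groups had therefore been exposed to TNF-α. The treatments as described lasted 6 h in the first group and 30 h in the second. If the harvest followed the treatment, NFL and the later harvest cannot be told apart. The cultures came from cells of a shared passage, and p-values measure the spread between these cultures. Untreated cells were not analysed here.

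Higher and lower refer to the groups as the deposited labels name them. In the study's supplementary table of changed genes the differences between these groups have the opposite sign, so each direction given here would reverse if the deposited labels were exchanged. TNF-α replicate 1 stood apart from the others in several genes. Its Lrp1 level, for example, was 411 TPM against 262 to 303 TPM in the other 5 libraries (log2 fold change -0.14 with it and 0.060 without it), and its Csf1r level was 1.12 TPM against at most 0.18 TPM. The tested inhibitor genes are therefore described with and without this library, as are the other named genes whose call or sign it changes. The libraries held 19344893 to 19725135 estimated counts each.

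TIMPs bind the catalytic zinc site of matrix metalloproteinases (MMPs) and block it. TIMP-1 and TIMP-2 are secreted inhibitors of many MMPs, TIMP-2 also takes part in the activation of pro-MMP-2 at the cell surface by MMP-14, and TIMP-3 is held in the matrix and also inhibits the aggrecanases ADAMTS-4 and ADAMTS-5 and the sheddase ADAM17. In cartilage the balance between these inhibitors and the proteases is one of the controls on collagen and aggrecan breakdown, and TNF-α is a known inducer of the proteases.

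The stretch of 250 bases upstream of the annotated start site is shown for the 2 most abundant inhibitor genes and for Timp3, so that their upstream letters can be set beside their levels and differences. The sequences are those of RefSeq on the rat build GRCr8, which is not the build named in the submitters' notes, and all 5 genes matched RefSeq by identifier. Capitals mark the AP-1 variant TGAGTAA and the GC box GGGCGG on either strand. The windows are Timp1 at chrX:3771123-3771372, Timp2 at chr10:104089215-104089464 and Timp3 at chr7:19459559-19459808, all read on the minus strand.
Timp1: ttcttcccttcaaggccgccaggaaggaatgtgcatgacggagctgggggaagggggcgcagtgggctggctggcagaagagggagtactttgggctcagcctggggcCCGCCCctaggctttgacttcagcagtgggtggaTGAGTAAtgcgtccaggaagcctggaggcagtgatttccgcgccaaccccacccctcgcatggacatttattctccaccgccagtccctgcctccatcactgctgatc
Timp2: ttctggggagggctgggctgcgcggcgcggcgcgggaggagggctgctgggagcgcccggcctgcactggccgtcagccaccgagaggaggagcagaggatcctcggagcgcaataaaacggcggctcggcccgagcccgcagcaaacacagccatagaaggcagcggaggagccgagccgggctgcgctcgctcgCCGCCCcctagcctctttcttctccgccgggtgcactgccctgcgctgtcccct
Timp3: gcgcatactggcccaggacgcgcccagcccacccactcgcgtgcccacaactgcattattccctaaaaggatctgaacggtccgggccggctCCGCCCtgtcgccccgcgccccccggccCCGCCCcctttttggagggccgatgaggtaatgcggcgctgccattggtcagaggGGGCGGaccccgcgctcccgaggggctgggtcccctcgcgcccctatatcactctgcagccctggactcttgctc

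Within these windows TGAGTAA occurred in Timp1, starting 108 bases before the start site, and in none of the other 4 genes. It is held by 2.38% of the 33469 RefSeq promoter windows of this length, and by 1.46% of the 11769 windows of tested genes. The shares of windows given here are a description, with no test. The AP-1 consensus TGANTCA, held by 6.34% of all windows and 4.49% of those of tested genes, was in none of the 5, nor were the TATA box TATAAA (12.9% and 6.61%) and the STAT motif TTCNNNGAA (7.67% and 6.02%). The GC box GGGCGG, held by 30.5% of all windows and 56.6% of those of tested genes, occurred once in Timp1, once in Timp2, 3 times in Timp3, 3 times in Reck and not in Timp4. The G and C share was 61.2% in Timp1, 72.0% in Timp2, 69.6% in Timp3, 68.4% in Reck and 50.8% in Timp4, against a median of 51.2% over all windows and 59.6% over those of tested genes. The RefSeq gene models of Timp1 and Timp4 reach further upstream than the start site used here. The RNA data do not measure binding of any factor to these letters.

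Timp2 and Timp1 were among the most abundant RNAs of these cells. Levels are compared between genes in TPM, a unit that the authors scaled to transcript length and to a fixed sum per library. Timp2 was at 1422 ± 53.0 TPM (SD over the 6 libraries) and ranked 91st from the top of all 18420 genes, and Timp1 was at 1368 ± 84.6 TPM and ranked 99th. Reck followed at 73.0 TPM, with a range of 68.2 to 80. Timp3 was at 6.56 TPM, between 6.30 and 6.90, close to the middle of the table, with 51.5% of genes above it. Timp4 was at 0.387 TPM, between 0.18 and 0.62.

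The ranges of Timp2 and Timp1 overlapped, so their order was not set beyond the spread of the libraries. No other neighbours in this order overlapped. Timp1 and Timp2 together made up nearly all of the TIMP RNA in TPM, since Timp3 took 0.218% to 0.254% of the summed TPM of the 4 TIMP genes and Timp4 at most 0.0214%.

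**Figure D1:**
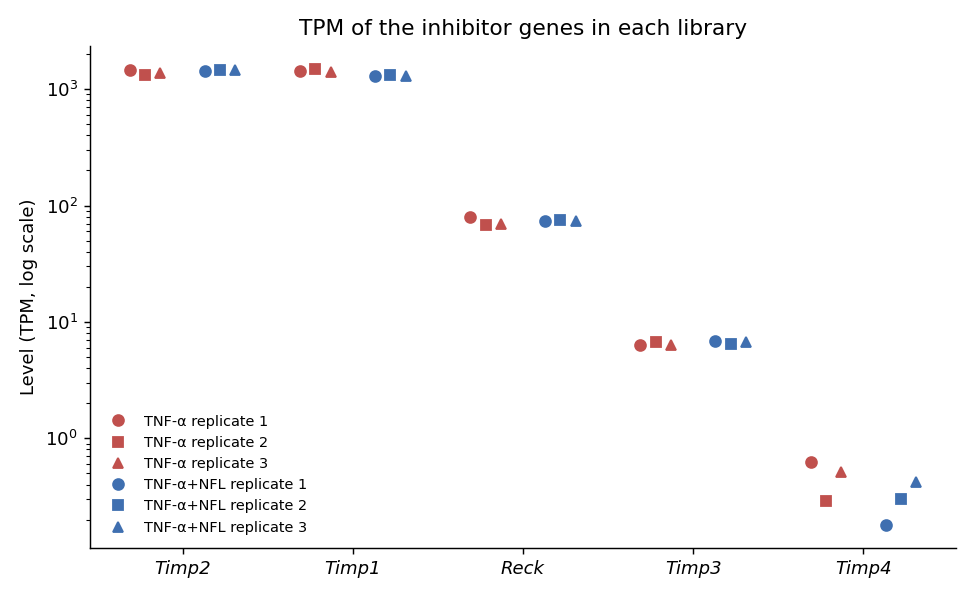
TPM of each inhibitor gene on a log axis, with 1 point per library, red for TNF-α and blue for TNF-α+NFL. Timp2 and Timp1 lie between 1289 and 1498 TPM and overlap, Reck between 68.2 and 80, Timp3 between 6.30 and 6.90 and Timp4 between 0.18 and 0.62.

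Timp1 was the inhibitor gene with the clearest difference between the groups, and it lay just outside the threshold. Its normalized CPM, counts scaled to a library's size, were 514, 559 and 529 in TNF-α replicates 1, 2 and 3, and 468, 473 and 468 in TNF-α+NFL replicates 1, 2 and 3. All 3 TNF-α+NFL libraries lay below all 3 TNF-α libraries, and they were also much closer to each other. The TNF-α libraries averaged 534 ± 23.2 CPM (SD, n = 3) and the TNF-α+NFL libraries 470 ± 2.61 CPM (SD, n = 3).

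The log2 fold change of Timp1 was -0.18 (standard error 0.0397), a difference of -12% with a 95% interval from -17.1% to -6.65%. The p of edgeR's quasi-likelihood test was 0.00044, and 0.0599 after Benjamini-Hochberg adjustment over the 13250 tested genes, so Timp1 did not pass 0.05. By p it ranked 96th of the tested genes, where 81 passed. Of all tested genes, 0.611% passed in either direction and 0.204% with the lower value in TNF-α+NFL. Groups that did not overlap in CPM were common, at 16.8% of the tested genes in either direction and 8.17% with TNF-α+NFL lower, so the separation of Timp1 alone does not set it apart. The exact permutation test gave p = 0.10 (two-sided), the smallest that 3 samples against 3 allow. In TPM the values were 1421, 1498 and 1397 in the TNF-α group and 1289, 1315 and 1289 in the TNF-α+NFL group, again without overlap.

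Whether Timp1 passed depended on 1 library and on the test. Its log2 fold change was -0.21 without TNF-α replicate 1 (adjusted p = 0.000196), a fit in which 6.94% of all tested genes passed, and -0.15 without TNF-α replicate 2, the TNF-α library with the highest value (adjusted p = 0.339). It also passed with no filter on low counts (adjusted p = 0.026), where 0.734% of genes did, and in the Wald test of DESeq2 (adjusted p = 0.00762), where 0.943% did. The sign was negative in all 6 fits with a library left out and in all 8 other settings.

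**Figure D2:**
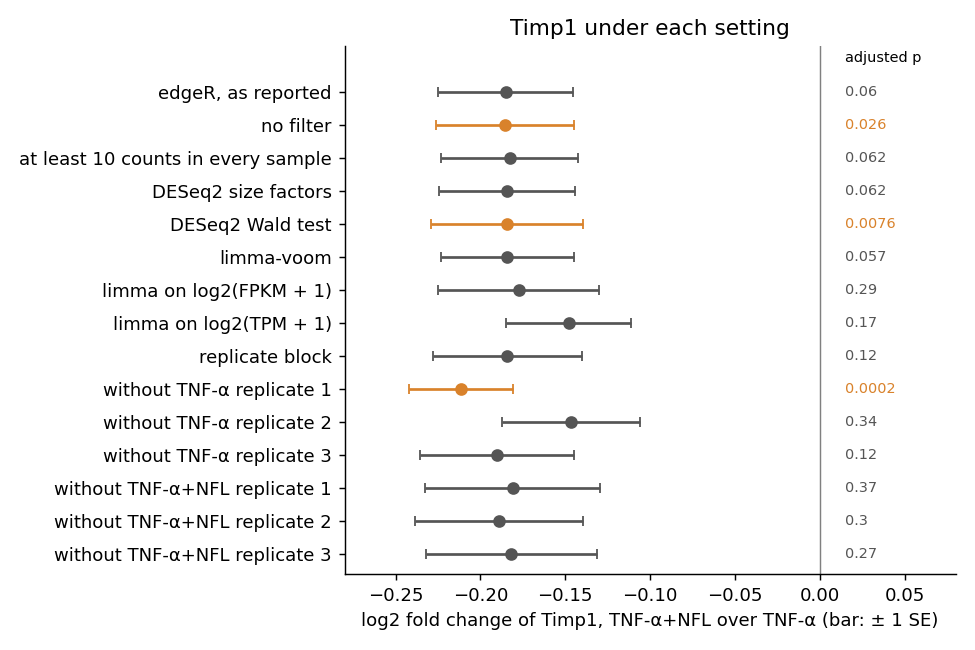
Log2 fold change of Timp1 in TNF-α+NFL over TNF-α (horizontal axis, points with bars of 1 standard error) under each setting, with its adjusted p at the right and orange for an adjusted p under 0.05. All 15 values are negative, from -0.21 to -0.15, and 3 of them pass.

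Timp2, the other abundant inhibitor, was level between the groups. Its CPM was 1220, 1142 and 1194 in TNF-α replicates 1, 2 and 3 and 1182, 1198 and 1217 in TNF-α+NFL replicates 1, 2 and 3, so the TNF-α+NFL libraries lay inside the range of the TNF-α libraries. The fitted difference was 0.016 on the log2 scale, with a standard error of 0.0376 (adjusted p = 0.928, exact permutation p = 0.70). Its 95% interval ran from -4.39% to 7.0%, at 22563 to 23898 counts per library. Without TNF-α replicate 1 the fitted difference was 0.038, and without TNF-α replicate 2 the sign turned, at -0.0062. In TPM, Timp2 was at 1473, 1336 and 1384 in the TNF-α group and 1423, 1454 and 1461 in the TNF-α+NFL group.

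The ratio of Timp1 to Timp2 within a library does not depend on the scaling between libraries. In TPM it was 0.964, 1.12 and 1.01 in TNF-α replicates 1, 2 and 3, and 0.906, 0.904 and 0.882 in TNF-α+NFL replicates 1, 2 and 3. Timp1 was thus above Timp2 in TNF-α replicates 2 and 3 and below it in the other 4 libraries. The TNF-α+NFL libraries had the lower ratios, without overlap. These values are a description, with no test. The summed TPM of the 4 TIMP genes was 2901, 2841 and 2788 in the TNF-α group and 2719, 2776 and 2758 in the TNF-α+NFL group, also without overlap.

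Reck, whose product inhibits several MMPs at the cell membrane and also acts with the receptor encoded by Adgra2 in WNT7 signaling, was at a CPM of 168, 149 and 153 in TNF-α replicates 1, 2 and 3 and of 154, 158 and 156 in TNF-α+NFL replicates 1, 2 and 3. The highest and the lowest of the 6 values were both in the TNF-α group. On the log2 scale the fitted difference was -0.0020 with a standard error of 0.0461 (adjusted p = 0.994, exact permutation p = 1) and a 95% interval from -6.80% to 7.0%. The highest value was that of TNF-α replicate 1, and without this library the log2 fold change was 0.050, with an adjusted p of 0.46.

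Timp3, the matrix-bound inhibitor, was measured from 237 to 282 counts per library, where counting error alone is 5.95% to 6.50%. Its CPM was 12.4, 13.5 and 14.0 in the TNF-α group and 14.1, 13.3 and 14.4 in the TNF-α+NFL group, and the groups overlapped. Its log2 fold change of 0.068 had a standard error of 0.0775 (adjusted p = 0.819, exact permutation p = 0.40). Without TNF-α replicate 1, which had the lowest value, it was 0.023 (adjusted p = 0.92). The interval of the difference, from -6.63% to 17.7%, is wider than that of the more abundant members.

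Timp4 was near the limit of detection. It had 10, 5 and 9 counts in TNF-α replicates 1, 2 and 3 and 3, 5 and 7 counts in TNF-α+NFL replicates 1, 2 and 3, of which 1 library was at the floor of 3 counts. The groups overlapped, and a difference was not detectable at this depth. With no filter on low counts, edgeR gave a log2 fold change of -0.67 with a standard error of 0.517 (adjusted p = 0.767).

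**Figure D3:**
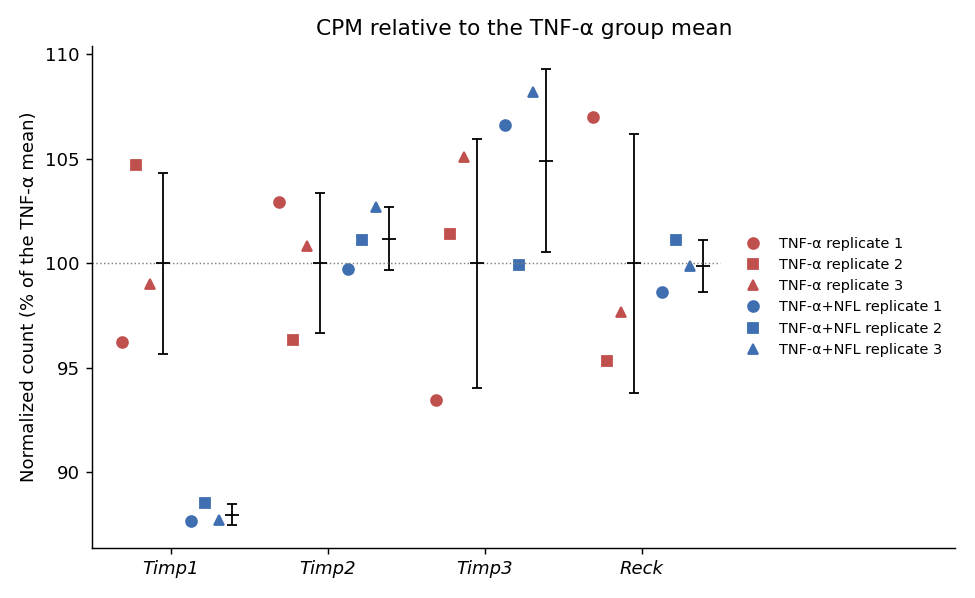
CPM of the 4 tested inhibitor genes in each library as a percentage of the mean of the TNF-α group (dotted line at 100), with black bars for the mean ± SD of the 3 libraries of a group; the axis does not start at 0. The TNF-α+NFL libraries of Timp1 lie between 87.7% and 88.5%, below each TNF-α library, while those of Timp2, Timp3 and Reck overlap the TNF-α libraries.

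The counts of the 5 genes were exactly whole as deposited in all 6 libraries, whereas 27.3% to 28.0% of all genes had fractional estimates, depending on the library. In RefSeq the spans of Timp1, Timp3 and Timp4 lie inside those of the synapsin genes Syn1, Syn3 and Syn2. Timp1 and Timp4 are on the strand opposite to their host. The synapsin genes, which encode proteins of neuronal vesicles, were close to silent, with 6 to 17 counts of Syn1, 8.96 to 17.5 of Syn3 and at most 1 of Syn2 in a library. Of the 2 that were tested, edgeR called none, nor was either at an unadjusted p under 0.05. Syn3 had a log2 fold change of -0.24, and of 0.057 without TNF-α replicate 1. Strand use in the counting is not given in the sources used here.

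Over the 6 libraries, the correlations between members had both signs. On log2 CPM, Pearson's r was -0.569 between Timp1 and Timp2, -0.299 between Timp1 and Reck, -0.345 between Timp1 and Timp3, -0.15 between Timp2 and Timp3, -0.688 between Timp3 and Reck and 0.783 between Timp2 and Reck. The genes most like Timp1 by this measure were Rpl29 (r = 0.994), Pes1 and Alkbh6, and 83 genes were above 0.95. For Timp2 they were LOC100362981, with a mean of 0.461 CPM, Tmem220 and Hgs, with r from 0.976 to 0.986. Polr2c, Rnf181 and Nek1 were nearest to Timp3, with r from 0.991 to 0.993. Med1, Fam168b and Cyfip1 were nearest to Reck, with r from 0.988 to 0.996. With 6 libraries that share a normalization such values are reached by many genes, and they are given as a description only.

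The proteases that these inhibitors act on were compared in the same fit. Of 16 secreted MMP genes, 10 were tested, of which Mmp13 was lower in the TNF-α+NFL group and none was higher, against 0.204% lower and 0.408% higher of all tested genes. Mmp13, the main collagenase of cartilage, averaged 336 ± 21.8 CPM (SD, n = 3) with TNF-α and 272 ± 11.5 CPM (SD, n = 3) with TNF-α+NFL. Its log2 fold change was -0.31 with a standard error of 0.0501 (adjusted p = 0.0167). It passed in 1 of the 6 fits that left out 1 library, that without TNF-α replicate 3 (adjusted p of up to 0.175 in the others). The median log2 fold change of the 10 genes was -0.12, with 9 below 0, against -0.0035 over all tested genes. At an unadjusted p under 0.05 there were 5, each with the lower value in TNF-α+NFL. Of all tested genes, 11.1% were under this p, 5.66% with the higher and 5.45% with the lower value in TNF-α+NFL. The 5 were Mmp2, Mmp3, Mmp13, Mmp10 and Mmp19, the last of which, like Mmp10, is named here after its value was seen. Without TNF-α replicate 1, edgeR gave Mmp3 an unadjusted p of 0.159 and Mmp10 of 0.06, while Mmp2, Mmp13 and Mmp19 stayed under 0.05.

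Mmp3, stromelysin, had the highest level of the listed MMP, ADAM and ADAMTS genes, at 8029 TPM, and Mmp2, gelatinase A, was at 1256 TPM. Mmp3 had a log2 fold change of -0.14 (adjusted p = 0.301) and Mmp2 of -0.10 (adjusted p = 0.386). Of the summed TPM of the secreted MMP genes, Mmp3 took 73.1% to 74.2% in each library. This sum was 3.89 to 4.01 times that of the 4 TIMP genes in the TNF-α libraries and 3.54 to 4.05 times in the TNF-α+NFL libraries, so the ratio of secreted MMP to TIMP RNA overlapped between the groups.

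The membrane-type MMP genes gave 5 tested genes and no call in either direction by edgeR, nor at an unadjusted p under 0.05. Mmp14, whose product activates pro-MMP-2 together with TIMP-2, was at 1047 TPM (log2 fold change -0.051, adjusted p = 0.768, and 0.011 without TNF-α replicate 1), and Mmp16 at 24.4 TPM (log2 fold change -0.051, adjusted p = 0.792). The ratio of Timp2 to Mmp14 in TPM was 1.26 to 1.38 in the TNF-α group and 1.36 to 1.42 in the TNF-α+NFL group, which overlap.

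Among the sheddases and aggrecanases, 8 ADAM genes and 12 ADAMTS genes were tested, and edgeR called none. At an unadjusted p under 0.05 there were 2 higher and 1 lower ADAM genes and 1 higher and 1 lower ADAMTS genes, where 11.1% of all tested genes were. Adam12 had the highest level of the ADAM genes, at 233 TPM (log2 fold change 0.043, adjusted p = 0.766). Adam17, the sheddase of TNF-α and a target of TIMP-3, was at 134 TPM (log2 fold change 0.055, adjusted p = 0.626). Adamts5, an aggrecanase that TIMP-3 inhibits, was at 79.9 TPM (log2 fold change -0.17, adjusted p = 0.648, and -0.038 without TNF-α replicate 1). Its level in TNF-α replicate 1, 100.4 TPM, was above the 73.5 to 78.2 TPM of the other libraries. Adamts10 was at 65.8 TPM (log2 fold change 0.037, adjusted p = 0.851). Without TNF-α replicate 1, where 6.94% of all tested genes passed, 4 of the 35 tested protease genes did, Adam19, Adam33, Adamts7 and Adamts12, which are named after their values were seen, and Mmp13 did not.

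**Figure D4:**
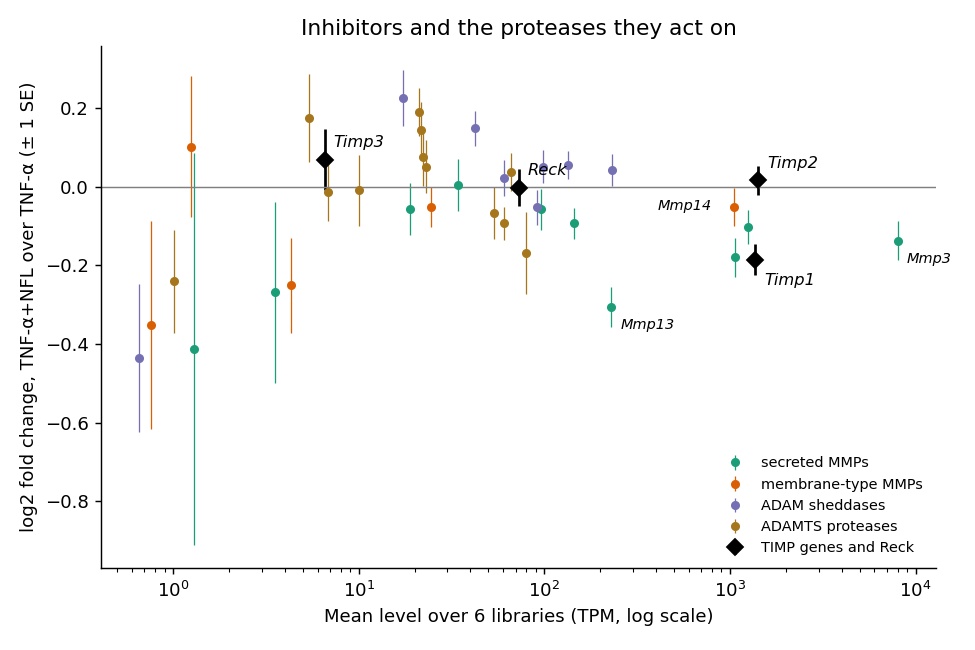
Log2 fold change in TNF-α+NFL over TNF-α (vertical axis, bars of 1 standard error) against mean TPM over the 6 libraries (log axis) for the 4 tested inhibitor genes (black diamonds) and the 35 tested protease genes (coloured by family). Timp1 lies at -0.18 and Timp2 at 0.016 at nearly the same level, and Mmp13 at -0.31 is the protease gene that passed.

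Of 13 tested genes for inhibitors of other proteases, 1 was lower with TNF-α+NFL, against 0.204% of all tested genes. Serpine2, which encodes protease nexin-1, averaged 1977 ± 15.3 CPM (SD, n = 3) with TNF-α and 1656 ± 18.4 CPM (SD, n = 3) with TNF-α+NFL, a log2 fold change of -0.26 with a standard error of 0.0341 (adjusted p = 0.00556). Cst3, the cysteine protease inhibitor cystatin C, was at 2251 TPM, above Timp2 and Timp1, with a log2 fold change of -0.062 (adjusted p = 0.576). Serpine2 did not pass without TNF-α+NFL replicate 1 or without TNF-α+NFL replicate 2 (adjusted p of up to 0.074).

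Genes whose products bind or clear TIMPs gave 8 tested genes of 9, with 1 higher, against 0.408% of all tested genes, and none lower. Itgb1, the β1 integrin subunit, was that gene, at 1304, 1336 and 1325 TPM in TNF-α replicates 1, 2 and 3 and 1581, 1553 and 1545 TPM in TNF-α+NFL replicates 1, 2 and 3. Its log2 fold change was 0.20 (adjusted p = 0.0279), and it passed in 1 of the 6 fits that left out 1 library, that without TNF-α replicate 1 (adjusted p of up to 0.265 in the others). Cd63, the tetraspanin that binds TIMP-1, was at 1792 TPM (log2 fold change -0.018, adjusted p = 0.934). Kdr, the receptor bound by TIMP-3, was listed at 0 in each library.

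Of 21 tested inducers and transcription factors of Timp1, 2 were higher and none was lower, against 0.408% of all tested genes higher. Tgfb3 and Tgfb2, which encode TGF-β ligands, were those 2, with log2 fold changes of 0.47 (adjusted p = 0.000204) and 0.23 (adjusted p = 0.0168). Tgfb3 passed in all 6 fits with a library left out, and Tgfb2 in 1 of them, that without TNF-α replicate 1, with adjusted p-values of up to 0.175 in the others. Junb, an AP-1 subunit, was at 474 TPM (log2 fold change -0.075, adjusted p = 0.516). At an unadjusted p under 0.05 there were 3 higher and 2 lower, the other three being AP-1 subunits that are named after their values were seen, each without overlap between the groups. Of all tested genes, 11.1% were under this p and 16.8% did not overlap. Fos had a log2 fold change of 0.22 (adjusted p = 0.312), Jun of -0.12 (adjusted p = 0.333) and Fosl1 of -0.25 (adjusted p = 0.0803), and Fosl1 passed without TNF-α replicate 1 (-0.31, adjusted p = 0.000321). The median of the 21 genes was 0.019. Of the 4 tested genes of WNT7 signaling with RECK, edgeR called none, and 1 was at an unadjusted p under 0.05, as were 11.1% of all tested genes. This was Adgra2, at 57.0 TPM (log2 fold change 0.11, adjusted p = 0.448), which passed without TNF-α replicate 1 (0.16, adjusted p = 0.0103). Lrp6 was at 58.1 TPM (log2 fold change -0.010, adjusted p = 0.986, and 0.11 without TNF-α replicate 1).

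The labelled cell type was checked against marker genes. The cartilage-defining genes Sox9, Acan and Col2a1 were present at low levels, of 4.54, 5.33 and 8.47 TPM, and Prg4, the lubricin gene of the cartilage surface, was the highest chondrocyte marker at 1100.2 TPM. The fibroblast marker Thy1 was at 2565 TPM. The summed TPM of the 19 chondrocyte markers was 1446 to 1889 in the TNF-α group and 1595 to 1767 in the TNF-α+NFL group. Most of this sum was Prg4 and Col11a1. The summed TPM of the 9 fibroblast markers was 5638 to 6291 and 6265 to 6435. None of the chondrocyte or fibroblast markers was called by edgeR, and 2 of 17 and 3 of 9 tested were at an unadjusted p under 0.05, against 11.1% of all tested genes. Named after their values were seen, the chondrocyte markers were Col2a1 (log2 fold change 0.23, adjusted p = 0.217) and the cartilage collagen gene Col11a1, at 460 TPM (log2 fold change 0.22, adjusted p = 0.052), which passed without TNF-α replicate 1 (0.25, adjusted p = 0.000554). The fibroblast markers were Thy1 (log2 fold change 0.095) and Postn (0.14), both with the higher value in TNF-α+NFL, and Lum (-0.15) with the lower. Without TNF-α replicate 1, where 6.94% of all tested genes passed, Postn and Lum passed (adjusted p = 0.000772 and 0.0452). Col1a1 (0.065 with this library, 0.15 without it, adjusted p = 0.00187) also passed in that fit. So did Pdgfrb (0.056 with this library, 0.14 without it, adjusted p = 0.0062). In bulk samples, fewer cells of a type and less RNA per cell cannot be told apart.

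Markers of other cells that Nanofat or the tissue could hold differed in level. The summed TPM of 6 endothelial markers was at most 0.41 in each library, with Tek the highest, and that of 3 red blood cell markers at most 0.39, with Hba-a1 the highest. The 7 macrophage markers summed to 104.7 to 115 TPM in the TNF-α group and 98.4 to 101 TPM in the TNF-α+NFL group, without overlap. Nearly all of it was Cd14 (64.8 TPM) and Cd68 (38.7 TPM), and no other averaged above 0.272 TPM. Ptprc, Itgam and Aif1 averaged 0.037, 0.043 and 0.155 TPM, and Lyz2 was listed at 0 in all libraries except TNF-α replicate 1. The groups did not overlap in the CPM of Cd14, as in 8.17% of all tested genes in that direction and 16.8% in either. Its log2 fold change was -0.17 (adjusted p = 0.163). Without TNF-α replicate 1, where 6.94% of all tested genes passed, Cd14 passed (-0.18, adjusted p = 0.0226). The 8 adipocyte markers, led by Fabp4 (32.1 TPM), summed to 37.7 to 39.2 and 39.6 to 45.1 TPM, and the 7 mural markers to 49.9 to 55.8 and 55.1 to 57.3 TPM, and 1 of the 6 that were tested was called higher, against 0.408% of all tested genes. This was Mcam, by 0.37 on the log2 scale (adjusted p = 0.00556). Mcam did not pass without TNF-α replicate 2, TNF-α+NFL replicate 1 or TNF-α+NFL replicate 2 (adjusted p of up to 0.074). Cspg4, named after its value was seen, had the lower value in TNF-α+NFL (log2 fold change -0.24, adjusted p = 0.217). Of the 6 tested mural markers, 3 had a log2 fold change above 0 and 3 below, with a median of -0.036. The part of these cell types in the Timp1 values was not tested.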

How the data were processed

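Poly(A) RNA of 6 chondrocyte cultures was sequenced as single-end reads on a BGISEQ-500, per the labels. The submitters' processing notes name HISAT2 2.0.4, Bowtie2 2.2.5, RSEM 1.2.12 and the rat build Rnor_6.0. The authors' deposited table holds estimated counts of each gene, not normalized, and FPKM and TPM values, which the authors scaled to transcript length and library size. All per-sample columns were used. Of 18420 gene identifiers, 17068 matched RefSeq (GRCr8), used for names, promoters and spans only.

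After rounding, the estimated counts went into edgeR 4.0.16 (R 4.3.3) with filterByExpr and TMM. The robust quasi-likelihood test was two-sided, and its p-values were adjusted by Benjamini-Hochberg over 13250 genes. Intervals of 95% were built from the fold change, its standard error (fold change over the square root of F) and edgeR's degrees of freedom. CPM uses TMM-scaled library sizes. Exact permutation tests compared mean log2 CPM. Counting errors cover counting only.

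The members and lists were chosen with earlier results of these data known. The lists were written from general knowledge. Named were the 5 members, list members past an adjusted p of 0.05, the 2 members of each pathway list and the top member of each marker list by TPM, and the 3 genes nearest to each tested member by Pearson's r. Alternatives were 2 other filters, DESeq2 1.42.0 size factors and its Wald test (independent filtering off), limma 3.58.1 with voom and on log2(FPKM + 1) and log2(TPM + 1), the replicate number as a block, and leaving out each library. Untreated (NC) cells were not analysed here, and the result of 1 gene among the inhibitors of other proteases is not reported here.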

Additional observations from a re-analysis of the deposited data

How the results depend on the processing

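Timp1 kept its negative sign in all 14 alternatives, and its adjusted p ran from 0.000196 to 0.369. It passed 0.05 with no filter (-0.1855), in the DESeq2 Wald test (-0.1844) and without TNF-α replicate 1 (-0.2113). The fits that left out 1 library ran from -0.2113 to -0.1468. Timp3 kept its sign throughout. Timp2 turned without TNF-α replicate 2, in a range from -0.0062 to 0.038 over the fits that left out 1 library, and was at 0.016 to 0.050 in the other settings. Reck turned with at least 10 counts in every sample (0.00031), with limma on log2(TPM + 1) (0.029) and without TNF-α replicate 1 or TNF-α+NFL replicate 1, in a range from -0.032 to 0.050 over the fits that left out 1 library. The cause was not tested. Neither Timp2, Timp3 nor Reck passed 0.05 in any setting. Timp4 could be tested only with no filter.

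The counts of 54 higher and 27 lower genes became 84 and 48 with no filter, 46 lower in the DESeq2 Wald test, 3 and 3 with limma on log2(FPKM + 1), 24 and 8 with limma on log2(TPM + 1) and 25 and 9 with the replicate block. Leaving out 1 library gave from 5 to 460 higher and from 0 to 470 lower genes, the most without TNF-α replicate 1 and the fewest without TNF-α+NFL replicate 1, where edgeR had 1035 genes at an unadjusted p under 0.05. Against 1 protease gene called, there were 0 with limma on FPKM, limma on TPM and the replicate block (6, 7 and 8 of 35 at an unadjusted p under 0.05), and from 0 to 4 in edgeR with 1 library left out (6 to 12 at an unadjusted p under 0.05).

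Of the called genes named from the lists, Tgfb3 passed in all 14 alternatives. Mmp13, Serpine2, Itgb1, Tgfb2 and Mcam did not pass with limma on log2(FPKM + 1), Mmp13 also not with limma on log2(TPM + 1), and Mmp13, Itgb1 and Tgfb2 not with the replicate block.

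The sources used here do not say that the replicate numbers pair the samples. The correlations of deviations of same-numbered samples were 0.030, -0.024 and 0.10, which cannot settle whether the cultures were paired. With the replicate block the log2 fold change of Timp1 was -0.1841 (adjusted p = 0.123). The block moved the number of called genes from 81 to 34. Depth limits Timp4 and, less so, Timp3.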
